A study of Populus tremula x Populus alba with 7 samples.

Results

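The regions described here carried a ChIP-seq peak of PtrARF5a and a ChIP-seq peak of PtrCORONA, and no peak of the other 4 transcription factors (TFs) of the study. The intervals of the 6 peak lists were merged wherever they overlapped by at least 1 bp, and merged regions on chromosomes with exactly this pair of TFs were kept. They numbered 271 of 5369 merged regions on chromosomes (5.05%, exact 95% binomial interval 4.48 to 5.67%) and are called ARF5a-CORONA regions below. A further 4 regions of the same make-up lay on unplaced scaffolds and were left out. The regions were thus chosen by the peak calls themselves, that is by the −log10 q with which each list passed its threshold, so the strength of the peaks in them is given as a description, without a test.

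Each of the 6 TFs (PtrC2H2ZF1, PtrC2H2ZF2, PtrARF5a, PtrBLH, PtrNAC127 and PtrCORONA) was tagged with GFP, driven by the constitutive CaMV35S promoter and introduced by Agrobacterium into leaves of tissue-culture plants of the hybrid Populus tremula × alba. Every group is thus leaf tissue of the same hybrid that overexpressed a single TF for a short time. Chromatin was cross-linked with formaldehyde and precipitated with a GFP antibody, and the common control was chromatin that had not been precipitated (input). The samples held no precipitation from tissue with GFP alone, so peaks shared between lists were not set against such a control. There was 1 library per TF and 1 input, so no value below has a replicate error, and a feature of a TF cannot be told apart from a feature of its library.

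PtrARF5a belongs to the auxin response factors, which bind auxin response elements in promoters and pass the auxin signal on to transcription. Its Arabidopsis relative ARF5, also called MONOPTEROS, is needed for vascular strands to form in the embryo. CORONA is a class III homeodomain-leucine zipper protein, a family that in Arabidopsis acts in meristems, in organ polarity and in the patterning of xylem, and whose transcripts are cut by a microRNA. Among the TFs whose peaks were absent from these regions are C2H2 zinc finger proteins, a BEL1-like homeodomain protein and a NAC domain protein.

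The ARF5a-CORONA regions held 273 PtrARF5a peaks, 5.18% of the 5268 in that list on chromosomes (4.60 to 5.82%), and 272 PtrCORONA peaks, 24.5% of 1109 (22.0 to 27.2%). That share of the PtrCORONA list lay together with PtrARF5a and no other TF. Both TFs had a peak in 1041 merged regions, and 271 of them (26.0%, 23.4 to 28.8%) held no other TF. Among the other classes with this pair, 476 regions had a peak in all 6 lists, 176 had PtrBLH as the only further TF and 47 had PtrNAC127 as the only further TF. Regions with a single TF numbered 3931 for PtrARF5a and 50 for PtrCORONA.

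The libraries differed in how much they could show. The depth that the peak caller scaled to, recovered from the steps of the expected background and given as a multiple of the input, was 0.879 for PtrARF5a, 0.781 for PtrCORONA, 0.527 for PtrBLH, 0.233 for PtrC2H2ZF1 and 0.210 for PtrC2H2ZF2. For PtrNAC127 it was 1.07, recovered in another way, from the steps of the scaled read number at 343 summits. This depth refers to the reads that the caller used after filtering, not to raw reads. Of the lists that had to be empty for a region to be kept, those of PtrBLH, PtrC2H2ZF1 and PtrC2H2ZF2 thus came from libraries shallower in this sense. A site without a peak there may still have been bound. The lists hold 575 to 5397 peaks, and the smallest −log10 q of a list ran from 2.02 for PtrARF5a to 4.26 for PtrC2H2ZF1. The q is the p-value of a peak after adjustment for false discoveries, and a larger −log10 q stands for a stronger call.

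Peaks of the ARF5a-CORONA regions rested on few reads. At the summit, the highest point of a peak, the PtrARF5a peaks had 2 to 44 reads with a median of 15, against a median of 13 over the whole PtrARF5a list on chromosomes. The reads expected there from the input had a median of 0.879. The PtrCORONA peaks had 4 to 31 summit reads with a median of 12, against 22 in the whole PtrCORONA list and 97.5 in regions of all 6 lists, and the expected number had a median of 1.26. The medians of 22 and 97.5 cover only peaks whose reads could be recovered, 1086 of 1109 and 454 of 476. The PtrARF5a list median of 13 covers 5266 of 5268. Fewer than 10 summit reads were behind 45 of the 273 PtrARF5a peaks (16.5%, against 20.7% of the list) and behind 53 of the 272 PtrCORONA peaks (19.5%, against 9.56% of the list). In 30 regions both peaks had fewer than 10.

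**Figure D1:**
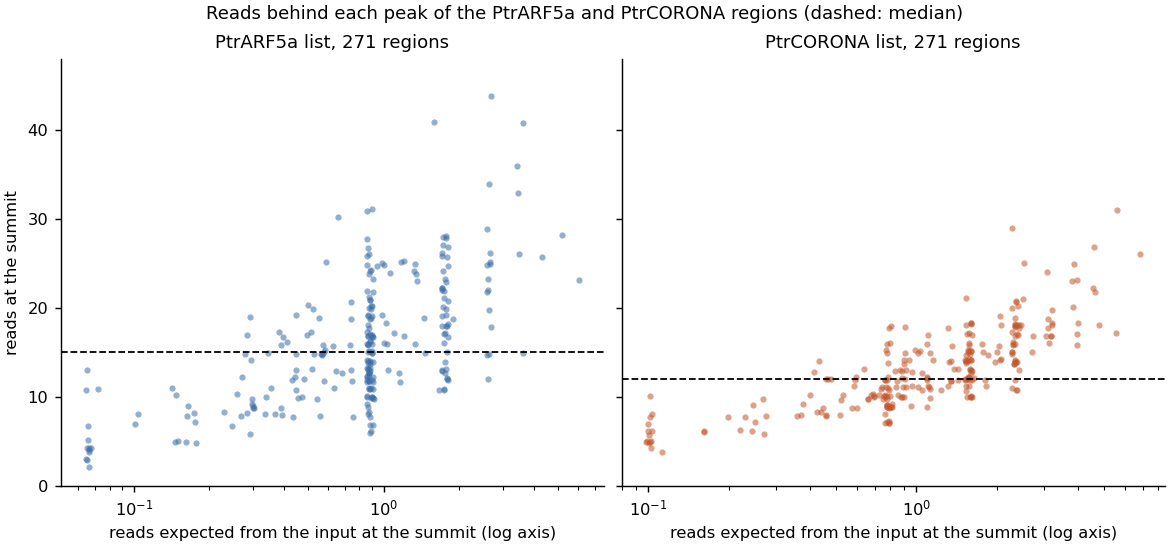
Reads at the summit of each peak (vertical axis) against the reads expected there from the input (horizontal log axis) in the 271 ARF5a-CORONA regions, for the PtrARF5a list on the left and the PtrCORONA list on the right. Points are regions, moved slightly at random so that equal values can be seen, and dashed lines mark the medians of 15 and 12 reads. Many points stand in columns because the expected number moves in whole steps of input reads.

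Fold enrichment is the ratio of summit reads to expected reads after 1 is added to each, which pulls weak sites towards 1. Over the 271 regions the PtrARF5a fold enrichment ran from 2.81 to 18.7 with a median of 8.07 and quartiles of 6.50 and 10.3, against a median of 6.67 in its list on chromosomes. Regions of PtrARF5a alone had a median of 6.16, those of PtrARF5a and PtrBLH only 8.03, those that also held PtrBLH 12.7, those that also held PtrNAC127 8.72, and those of all 6 lists 15.0. The median of the pair thus lay above that of its own list and next to that of PtrARF5a and PtrBLH only. It lay below those of the class with PtrBLH as a further TF and of all 6 lists. The class with PtrNAC127 was close to the pair, at a median of 12 summit reads. A −log10 q of at least 10 was reached by 165 of the 273 PtrARF5a peaks (60.4%), against 38.9% of the list.

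PtrCORONA stood in the other part of its list. Its fold enrichment in the ARF5a-CORONA regions ran from 2.78 to 10.7 with a median of 5.86 and quartiles of 5.07 and 6.82, against a median of 9.31 in its list on chromosomes. Regions of PtrCORONA alone had a median of 5.61, those that also held PtrBLH 6.90, those that also held PtrNAC127 8.98, and those of all 6 lists 15.0. The strongest PtrCORONA peak of these regions had a −log10 q of 19.2, against a median of 17.2 in the whole list. A −log10 q of at least 10 was reached by 42 of the 272 (15.4%), against 62.5% of the list. Both peaks of a region reached 10 in 31 of the 271 regions (11.4%, 7.91 to 15.8%) and both reached 5 in 193 (71.2%, 65.4 to 76.5%). Regions with a further TF were left out by the rule and had the higher medians, so the rule takes part in this order. Both lists were called against the same input, and nothing was tested between them.

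**Figure D2:**
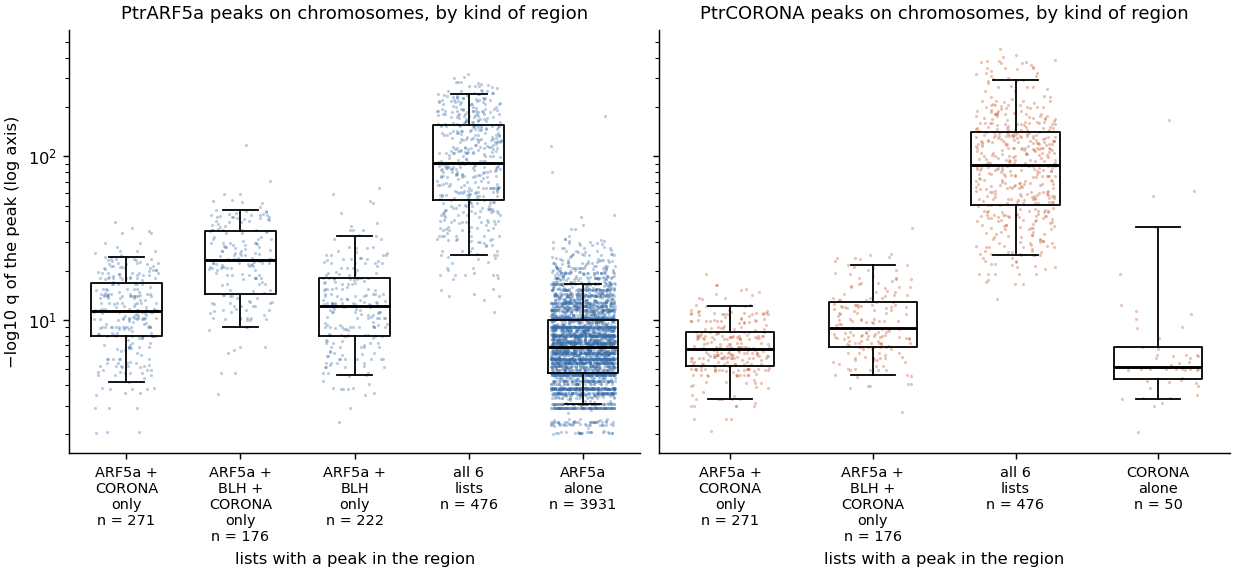
The −log10 q of PtrARF5a peaks (left) and PtrCORONA peaks (right) on a log axis, by the lists that have a peak in the region, with the strongest peak of the list in each region as a point. Boxes show quartiles and medians and whiskers run from the 5th to the 95th percentile. In ARF5a-CORONA regions (leftmost in each panel) the median was 11.4 for PtrARF5a, against 6.83 in regions of PtrARF5a alone and 91.0 in regions of all 6 lists, and 6.60 for PtrCORONA, against 88.5 in regions of all 6 lists and 5.19 in those of PtrCORONA alone.

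The region with the best mean rank over both lists lay on chromosome 11 from 18038141 to 18038556. Its PtrARF5a summit had 41 reads (exact 95% Poisson interval 29.4 to 55.6) over 1.62 expected, which gave a fold enrichment of 16.1. The −log10 q was 39.6, the largest PtrARF5a value among the regions. Its PtrCORONA summit, 32 bp away, had 25 reads (16.2 to 36.9) over 2.47 expected, which gave a fold enrichment of 7.48 at a −log10 q of 14.3. The next in rank lay on chromosome 16 from 7937856 to 7938311, where fold enrichments were 14.1 for PtrARF5a and 10.5 for PtrCORONA with 17 and 14 reads. It was followed by a region on chromosome 15 from 10568250 to 10568797, with fold enrichments of 15.5 and 8.97, whose summits were 191 bp apart. These leading regions show that the order does not follow the number of reads alone, since a few reads over a nearly empty background rank as high as many reads over a fuller one.

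Chromosome 10 held 3 of the 10 leading regions. The one from 16237832 to 16238239 had 13 PtrARF5a reads over 0.0661 expected and 8 PtrCORONA reads over 0.101 expected, so its fold enrichments of 13.1 and 8.17 stood on an almost read-free input. The region from 13142292 to 13142699 had the largest PtrCORONA −log10 q of all (19.2), with 29 reads over 2.34 expected, and a PtrARF5a −log10 q of 21.3. In the third, from 15799936 to 15800288, the −log10 q was 24.2 for PtrARF5a and 10.9 for PtrCORONA. The remaining leaders lay on chromosome 7 (1692043 to 1692466), chromosome 12 (5672226 to 5672675), chromosome 8 (8850511 to 8851001) and chromosome 9 (9175691 to 9176202). Their PtrARF5a −log10 q lay between 20.8 and 29.5 and their PtrCORONA −log10 q between 10.3 and 15.2.

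The regions with the 3 largest fold enrichments of each TF were different ones. For PtrARF5a the highest was 18.7, on chromosome 1 from 7323338 to 7323919, where PtrCORONA had 5.98. A value of 17.0 followed on chromosome 16 (3155085 to 3155598) and on chromosome 2 (7838941 to 7839355), where PtrCORONA had 7.37 and 4.68. For PtrCORONA the highest was 10.7, reached with the same 18 reads over 0.781 expected on chromosome 18 (13792394 to 13792898) and on chromosome 17 (14889450 to 14889980), where PtrARF5a had 11.7 and 9.05. Equal values of this kind were common because they come from small whole numbers of reads. The 273 PtrARF5a peaks had only 176 distinct pairs of fold enrichment and −log10 q, and the 272 PtrCORONA peaks had 160. Many regions thus tie or nearly tie in these lists.

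At the weak end, the PtrARF5a peak with the smallest fold enrichment (2.81) lay on chromosome 1 from 35664063 to 35664449 and rested on 2 reads over 0.0661 expected, with a −log10 q of 2.03. The PtrCORONA peak of the same region had 5 reads and a −log10 q of 5.89. The next smallest PtrARF5a fold enrichments, 3.35 on chromosome 2 (25112890 to 25113263) and 3.54 on chromosome 12 (10170160 to 10170591), had 23 and 15 reads over backgrounds of 6.16 and 3.52. For PtrCORONA the smallest were 2.78 on chromosome 14 (14794195 to 14794740), 3.34 on chromosome 6 (3891846 to 3892290) and 3.36 on chromosome 2 (16252153 to 16252731). These had 17, 18 and 26 reads over 5.47, 4.69 and 7.03 expected. A low fold enrichment thus came either from hardly any reads or from a high input.

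The rule asks for overlapping peaks, which limits in advance how far apart the summits of both TFs in a region can lie. The distance expected of overlapping peaks as wide as these was not worked out. The distance between the summits was 0 to 347 bp with a median of 47 bp. In 215 of 271 regions (79.3%, 74.0 to 84.0%) it was at most 100 bp. Over all 1041 regions with both peaks the share within 100 bp was 87.0%. Regions that also held PtrBLH gave a median of 46.5 bp with 135 of 176 within 100 bp (76.7%, 69.8 to 82.7%). In regions of all 6 lists the median was 8 bp with 454 of 476 within 100 bp (95.4%, 93.1 to 97.1%), and in those with PtrNAC127 as the only further TF it was 10 bp with 41 of 47 (87.2%, 74.3 to 95.2%). The median of the ARF5a-CORONA regions thus stood next to that of the class with PtrBLH and above those of the classes with PtrNAC127. In regions of PtrARF5a and PtrBLH only, the PtrARF5a and PtrBLH summits also had a median distance of 47 bp. The spacing was thus not particular to PtrARF5a with PtrCORONA. The differences were not tested, and these classes also differ in the number of reads that place a summit.

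**Figure D3:**
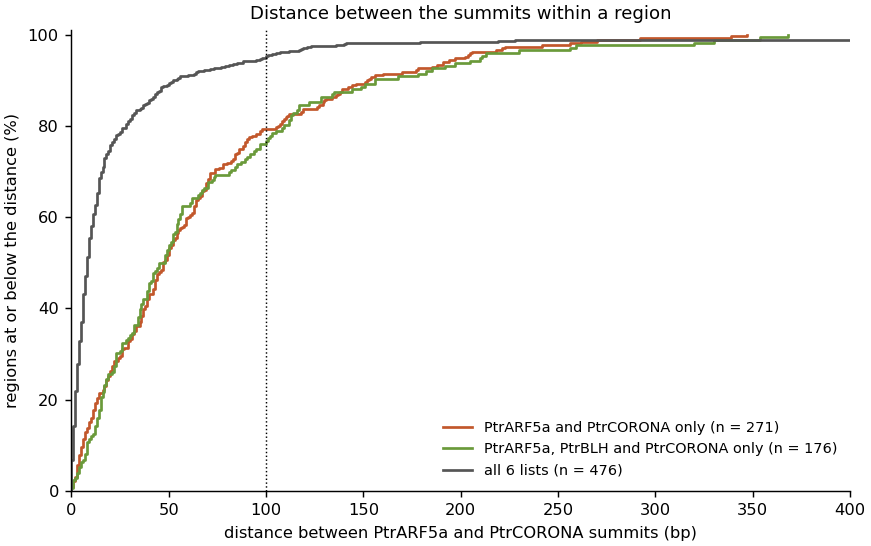
Share of regions (vertical axis, %) in which the PtrARF5a and PtrCORONA summits are at most a given distance apart (horizontal axis, bp), for ARF5a-CORONA regions, regions that also hold PtrBLH and regions of all 6 lists. The dotted line marks 100 bp, where the curves stand at 79.3%, 76.7% and 95.4%, and the axis ends at 400 bp, beyond which only regions of all 6 lists have values.

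Among the ARF5a-CORONA regions, the median summit distance was smaller in groups with a stronger PtrCORONA call. Over 4 groups of 67 or 68 regions, from the weakest to the strongest by PtrCORONA −log10 q, the median distance was 59, 56.5, 44 and 39 bp. Summits at most 100 bp apart were found in 50, 51, 55 and 59 regions of these groups. The share was 73.5% (61.4 to 83.5%) in the weakest and 88.1% (77.8 to 94.7%) in the strongest, and these intervals overlap. The groups were cut on a value that the rule itself used, with equal values on both sides of a cut. The trend is a description and was not tested. The summits fell on the same base in 2 regions and were over 200 bp apart in 14. Where a list had several peaks in a region, these distances use the one with the largest −log10 q. The largest distances were 347 bp on chromosome 5 (5971416 to 5971928), 339 bp on chromosome 11 (574821 to 575348) and 292 bp on chromosome 14 (1667348 to 1667826). On chromosome 5 the PtrARF5a peak used had its summit at 5971511, while a weaker PtrARF5a peak of the same region had its summit at 5971794, nearer to the PtrCORONA summit at 5971858. The PtrARF5a summit lay inside the PtrCORONA peak in 259 of 271 regions, and the PtrCORONA summit inside the PtrARF5a peak in 249. The overlap that the rule requires favours such counts.

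The regions had a span of 288 to 871 bp with a median of 400 bp. The median was 493 bp where PtrBLH was also present and 583.5 bp in regions of all 6 lists, classes that join peaks of more lists. It was 382.5 bp in regions of PtrARF5a and PtrBLH only, 318 bp for PtrCORONA alone and 217 bp for PtrARF5a alone. In the ARF5a-CORONA regions the PtrARF5a peaks had a median width of 297 bp, against 239 bp in the list. The PtrCORONA peaks had 334 bp, against 501 bp in the list. The narrowest width a list contains was 167 bp for PtrARF5a and 288 bp for PtrCORONA. This minimum was the width of 54 of the 272 PtrCORONA peaks (19.9%), against 102 of 1109 in the list (9.20%), and of 11 of the 273 PtrARF5a peaks (4.03%), against 605 of 5268 (11.5%). Peaks of both TFs shared a median of 252 bp. The whole PtrARF5a peak lay within the PtrCORONA peak in 79 regions, and the reverse held in 41. Since the minimum width is larger in the PtrCORONA list, these counts are not like for like.

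The widest region, on chromosome 16 from 2498263 to 2499133, joined a PtrARF5a peak with 25 summit reads to PtrCORONA peaks of 18 and 11 reads, whose summits at 2498512 and 2498882 stood on either side of its middle. It was followed in width by regions of 740 bp on chromosome 4 (861473 to 862212) and 733 bp on chromosome 14 (6087269 to 6088001). Besides the widest, another 2 regions held 3 peaks. On chromosome 4, from 8210428 to 8211086, a PtrCORONA peak of 7 summit reads bridged PtrARF5a peaks of 13 and 16 reads, with summits at 8210554, 8210753 and 8210931. On chromosome 5, from 5971416 to 5971928, PtrARF5a peaks of 9 and 10 reads both overlapped a single PtrCORONA peak of 11 reads. In these places a list gave more than a single summit, and whether the summits mark separate sites was not tested.

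The edges of the rule were set by overlap and by the absence of other calls. Just inside, the smallest overlap of the paired peaks was 5 bp, on chromosome 2 (16861773 to 16862265), followed by 68 bp on chromosome 1 (35664063 to 35664449) and 90 bp on chromosome 10 (2069967 to 2070365). In 266 of the 271 regions (98.2%) the overlap covered at least 50% of the shorter peak. Just outside, a region of PtrCORONA alone on chromosome 6 (24752650 to 24752937, 12 reads) lay 74 bp from a region of PtrARF5a alone (24753012 to 24753191, 9 reads). The next such pairs were 463, 575, 675 and 964 bp apart, on chromosomes 18, 16, 14 and 1. Among regions kept out by a PtrBLH peak only, the weakest such peaks had a −log10 q of 2.08, on chromosome 2 (15795302 to 15795769) and on chromosome 6 (11527855 to 11528602), each with 7 reads. With regard to overlap, few regions lay near the limit on either side.

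Peaks of the other TFs were mostly far away. The nearest peak of the 4 other lists was 361 to 1090775 bp from the edge of a region, with a median of 92208 bp. Regions of PtrARF5a alone had a similar median, 99975 bp. The nearest such peak was at most 10 kb away in 26 of 271 regions (9.59%, 6.36 to 13.7%), against 9.13% of the regions of PtrARF5a alone. That share lies within the interval. A PtrBLH peak was among the near ones in all 26. PtrC2H2ZF2 had a peak within 10 kb of 9 regions, and PtrC2H2ZF1 and PtrNAC127 each of 8. The nearest peak was one of PtrBLH in 126 regions, of PtrNAC127 in 58, of PtrC2H2ZF2 in 49 and of PtrC2H2ZF1 in 38. The PtrBLH list is also the longest of these 4.

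**Figure D4:**
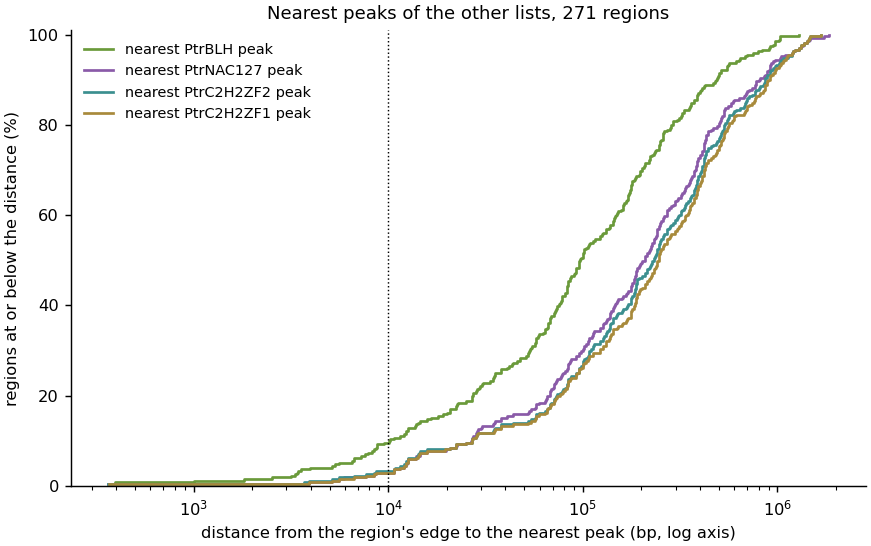
Share of the 271 ARF5a-CORONA regions (vertical axis, %) whose nearest peak of another list lies within a given distance from the region's edge (horizontal log axis, bp), with a line for each of the 4 other TFs. The dotted line marks 10 kb, within which 26 regions had a PtrBLH peak and 8 or 9 a peak of each other TF, and the median distance was 97088 bp for PtrBLH, 208201 bp for PtrNAC127, 231949 bp for PtrC2H2ZF2 and 245663 bp for PtrC2H2ZF1.

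Within 1 kb of another TF lay 2 of the 271 regions (0.738%, 0.0895 to 2.64%), against 61 of the 3931 regions of PtrARF5a alone (1.55%, 1.19 to 1.99%). The first, on chromosome 2 from 25112890 to 25113263, lay beside a strong common site. A region with peaks of all 6 lists ended 361 bp away (25111949 to 25112528), with a −log10 q of 94.3 to 173.3 in the single lists. The PtrARF5a and PtrCORONA peaks of the ARF5a-CORONA region had 4.72 and 11.0. Whether it is a site apart from its neighbour was not tested. The second, on chromosome 8 from 11227332 to 11227879, lay 395 bp from a PtrBLH peak with a −log10 q of 4.05. The next nearest were regions on chromosome 4 (16325943 to 16326464), chromosome 1 (11027521 to 11027953) and chromosome 8 (10948952 to 10949554), at 1004, 1819 and 2538 bp from a PtrBLH peak.

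Further PtrARF5a peaks were found around many of the regions. Within 10 kb, 127 of 271 (46.9%, 40.8 to 53.0%) had another PtrARF5a peak, against 43.9% of the regions of PtrARF5a alone. Another ARF5a-CORONA region was within 10 kb of 20 regions (7.38%), and the median distance to the nearest was 417514 bp. The closest pair lay on chromosome 7, where 120 bp separated a region from 3944631 to 3945126 and one from 3945247 to 3945539. A gap of 359 bp followed on chromosome 2 (7838084 to 7838581 and 7838941 to 7839355), with PtrARF5a −log10 q of 22.0 and 34.2 and PtrCORONA −log10 q of 8.001 and 4.10. The next pairs were 4509 bp apart on chromosome 10 (15661391 to 15666853 in all), 5547 bp apart on chromosome 17 (11636263 to 11642929) and 6099 bp apart on chromosome 15 (12448007 to 12454981). Most regions therefore had no other ARF5a-CORONA region within 10 kb. The spacing expected of regions placed at random was not worked out, so these values do not show how clustered the regions were.

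All 19 chromosomes held ARF5a-CORONA regions, between 31 on chromosome 1 and 3 on chromosome 18. Chromosome 1 had 11.4% of them, against 11.3% of all merged regions. Relative to the PtrCORONA peaks of a chromosome, the numbers were lowest on chromosome 18, with 7.32 per 100 peaks (exact 95% binomial interval 1.54 to 19.9), and on chromosome 13, with 10.9 (3.62 to 23.6). They were highest on chromosome 19, with 35.7 (18.6 to 55.9). The intervals of chromosomes 18 and 13 ended below the 24.5% of the whole list, and those of all other chromosomes included it. Relative to PtrARF5a peaks, chromosome 18 had 1.67 regions per 100 peaks (0.345 to 4.79), below the 5.18% of that list, while chromosome 13 had 2.98 (0.973 to 6.81), an interval that includes it. Both chromosomes were singled out as the lowest of 19, and the difference was not tested.

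**Figure D5:**
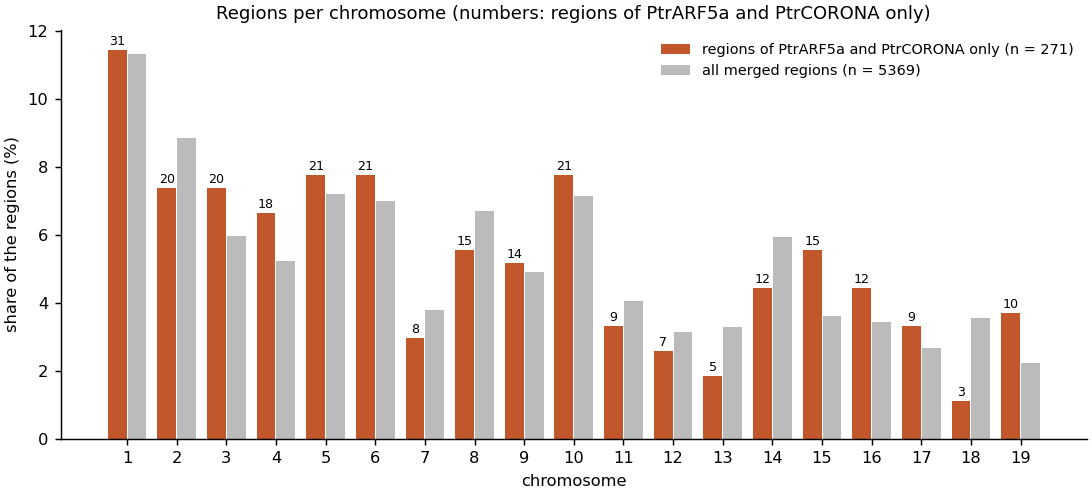
Share of the 271 ARF5a-CORONA regions (left bar of each pair, with their number) and of the 5369 merged regions (right bar) on each of the 19 chromosomes, in percent. Chromosome 1 has the largest share of both, 11.4% and 11.3%, and chromosome 18 the smallest of the ARF5a-CORONA regions, with 3.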

How the data were processed

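ChIP-seq was done on 6 TF-GFP libraries and an input, which has no list of its own. According to the methods and processing notes of the submitters, the authors trimmed paired-end reads (Trimmomatic), mapped them to the Populus tremula × alba INRA 717-1B4 genome (Bowtie2), removed duplicates and mapping qualities under 30 (SAMtools), and ran MACS2 2.1.0 on each library. The deposited lists give a fold enrichment (a ratio to the input), a −log10 p, a −log10 q, a whole-number score that follows the −log10 q, and a summit for each peak, all as the caller wrote them. Coordinates are counted from 1.

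Summit reads and expected reads were solved from each deposited fold enrichment and −log10 p, assuming a Poisson model and a pseudocount of 1. A whole number was found for all peaks with −log10 p under 250 in each list except PtrNAC127, which was not solved, and 1 PtrCORONA peak of the regions had more than a single solution. Where a list had several peaks in a region, the one with the largest −log10 q was used. Exact intervals cover counting error only. Depth was read from the steps of the expected background and, for PtrNAC127, from those of the scaled summit reads of 343 peaks whose expected background was a whole number, and how the caller extended and scaled reads is an inference from the values.

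Regions named in the text are the 10 best by mean rank of −log10 q, the extremes of fold enrichment, width, summit distance and spacing, and those at the edges of the rule. Regions, lists and rule were chosen with earlier results of these data known. Correlations between lists are not given, since all lists share the input. Gene features and motifs were not analysed here. Code was tested on simulated lists. All steps ran in Python 3.11.15 with scipy 1.17.1, pandas 2.3.3 and numpy 2.4.6, and matplotlib 3.10.9 drew the plots.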

Additional observations from a re-analysis of the deposited data

How the results depend on the processing

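The number of ARF5a-CORONA regions was between 215 and 275, against 271, when peaks of −log10 q under 5 were dropped, when peaks up to 200 or 1000 bp apart were merged, when each peak was taken as its summit plus and minus 100 bp, when scaffolds were included and when an overlap of 50% of the shorter peak was required. Of the 215 regions at a −log10 q of at least 5, 193 overlapped one of the 271. With a −log10 q of at least 10 in every list it was 52, of which 31 overlapped one of the 271, because weak peaks of other lists dropped out as well. With at least 5, the median fold enrichment was 8.52 for PtrARF5a and 6.25 for PtrCORONA, against 8.07 and 5.86. The share of regions with close summits was 53.1% at a limit of 50 bp and 94.8% at 200 bp, against 79.3% at 100 bp, and 79.7% with the nearest pair of summits in each region. The median distance to another list was 92922 bp from centre to summit, against 92208 bp. No paired analysis was possible because each TF has 1 library and no test was made.

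Few summit reads limit the weakest calls, and the absence of a peak in a shallower library does not show absence of binding.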
